A study of Mus musculus with 14 samples.

Results

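The cytosolic ribosomal protein genes were examined in haematopoietic stem cells (HSCs) of mice lacking Phf19, to ask whether the higher level of Rpl30 in those cells was an exception within the family or part of a common shift. Members were taken by symbol from the 4 MARS-Seq count tables: Rpl or Rps followed by a digit, with Rplp0, Rplp1, Rplp2 and Rpsa, and without pseudogene copies (symbols with -ps) and the Rps6k kinases. The rule found 91 of 25832 gene IDs, 54 named for the large and 37 for the small subunit. Of these, 77 are usual subunits and 14 are like-named genes such as Rpl22l1, a paralog of Rpl22, or Rps19bp1, which is no subunit. The family was chosen because earlier work on these data had found Rpl30 raised in KO cells, so the KO against WT values of Rpl30 and its relatives are given as a description and support nothing.

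The series studied Phf19, a protein associated with Polycomb repressive complex 2, which deposits the repressive histone mark H3K27me3. It holds 14 samples, and the values here come from the 4 MARS-Seq plates, 350W, 351W, 352W and 353W, of bone marrow cells that were depleted of lineage-marked cells and are labelled CD150+ CD48-. MARS-Seq sequences RNA of single sorted cells in plates and tags each captured transcript with a unique molecular identifier (UMI), so that a count is a count of molecules. The plates carry no genotype in the labels. The 2 groups are the wells whose names in the tables start with WT and with KO, 96 of each in every plate. In the series, KO means Phf19 knockout mice and the controls are floxed. Whether the WT wells hold floxed cells, how the deletion was driven, and the age and number of animals are not stated in the labels. No label ties the plates to different animals; the p-values thus reflect variation among these plates alone, and that variation may be technical. WT cells stand in wells up to number 96 and KO cells from number 97 on in all 4 plates, so genotype and position in the plate cannot be told apart.

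A ribosome is made of ribosomal RNA and a full set of these proteins, each present about equally in a finished particle, with the large subunit joining amino acids and the small subunit reading the mRNA. The transcripts are among the most abundant of a cell, and most start with a run of pyrimidines (the 5′ terminal oligopyrimidine, or TOP, start) through which mTOR signalling governs their translation together. HSCs are known for a low rate of protein synthesis, and loss of 1 copy of several of these genes causes Diamond-Blackfan anaemia.

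Wells with at least 500 UMIs were kept, 716 of 768, and 49 of the 52 left out were KO wells. The 8 sums of cells (4 plates, WT and KO) held 220821 to 510791 UMIs, and the median UMIs per cell was lower in KO than in WT cells of every plate, from 2230 against 3077 in 350W to 4483.5 against 5006 in 353W. All 15 HSC markers looked for had UMIs, with a summed level of 1208 to 2157 counts per 1000000 UMIs (CPM) in WT and 1224 to 2054 in KO cells, although Slamf1, which encodes CD150, was at 0 in WT cells of 352W and 353W. The plates differed in markers of other cells. Of the progenitor markers, Cd48 was at 0, 0, 195 and 47.0 CPM in WT cells of 350W to 353W, Flt3 at 0, 30.4, 368 and 170 CPM and Cd34 at 22.4, 30.4, 312 and 345 CPM, and the 3 together ranged from 22.4 to 875 CPM in WT and from 48.0 to 833 in KO cells. The 6 megakaryocyte markers ranged from 47.2 to 725 CPM in WT and from 67.9 to 613 in KO cells, with Vwf at 532, 58.4, 6.30 and 11.7 CPM in WT cells. Among markers of other cells, S100a8 (myeloid) and Gzma (cytotoxic lymphocyte) were at 0 throughout. The summed level of the 8 myeloid markers, 7 of them with UMIs, was 317 to 674 CPM in WT and 266 to 683 in KO cells, and that of the 7 B cell markers, 6 of them with UMIs, was 83.4 to 15342 and 40.6 to 9533 CPM. The immunoglobulin transcripts Ighm and Igkc were at 0 in 351W and at 7092 and 4561 CPM in WT cells of 352W, where Cd79a, a defining B cell gene, was at 9.44 CPM. The B cell list was higher in KO cells in 1 of 4 plates, and Ighm was among the 6 genes that edgeR called between KO and WT cells, at a log2 fold change of -1.10, from 1562 to 481 CPM in 353W. The part of these plate differences in the results below was not tested.

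Rpl30 encodes a large subunit protein that also binds the RNA element directing selenocysteine insertion. Its level in WT cells was 981, 749, 450 and 777 CPM in plates 350W, 351W, 352W and 353W, from 306, 295, 143 and 397 UMIs. In KO cells of the same plates it was 1394, 1382, 856 and 1282 CPM, from 309, 432, 189 and 490 UMIs. KO cells stood higher in 4 of 4 plates, by 0.51, 0.88, 0.93 and 0.72 on the log2 scale, but the groups overlap across plates, since the KO value of 352W lies below the WT value of 350W. The means were 739 ± 219 CPM in WT and 1228 ± 253 CPM in KO cells (SD, n = 4 plates each). The edgeR quasi-likelihood fit over 6541 genes, with the plate as a block, gave a log2 fold change of 0.76 (SE 0.088), a 1.69-fold higher level, with an adjusted p of 4.01e-04. Rpl30 was the only member called of 87 tested, beside 6 of all 6541 genes tested (0.0917%), and since Rpl30 chose the family nothing is read from that count. Without the plate block the log2 fold change was 0.74 with an edgeR adjusted p of 0.9999, and DESeq2 gave 0.77 with an adjusted p of 0.407, so the call rests on the block and on edgeR.

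The higher level of Rpl30 was found along the wells and across depths. In runs of 24 neighbouring wells, WT values ranged from 823 to 1051 CPM in 350W, 646 to 924 in 351W, 354 to 536 in 352W and 740 to 827 in 353W. KO values ranged from 1210 to 1652, 1217 to 1536, 720 to 1067 and 1235 to 1354 CPM in the same plates. By value, no run of KO wells overlapped a run of WT wells of its own plate. Exact 95% intervals of some did overlap, as in 350W with 833 to 1308 (WT) and 938 to 1537 CPM (KO). Runs and the depth groups that follow split the cells by which Rpl30 was chosen, so their values only describe that difference. With the cells of each plate and group split at their median depth, the lower KO value was above the higher WT value in every plate, the closest being 1226 against 1061 CPM in 350W. After thinning each cell to 1000 UMIs, the share of cells with an Rpl30 UMI was 54.3%, 56.8%, 33.7% and 49.5% in WT and 67.8%, 72.3%, 52.9% and 75% in KO cells of the 4 plates. The exact 95% intervals of these shares overlapped in 350W, 351W and 352W, where they were 24.3% to 44.1% (WT) and 40.4% to 65.2% (KO) in 352W. They did not overlap in 353W, at 38.9% to 60.0% (WT) and 63.7% to 84.2% (KO). Unthinned shares were 89.5%, 82.3%, 69.5% and 88.4% in WT and 90.2%, 89.9%, 70.3% and 95% in KO cells, which were shallower in every plate. Rpl30 is active in every cell type, so no cell type gives a background share. No cell held more than 19 Rpl30 UMIs.

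**Figure D1:**
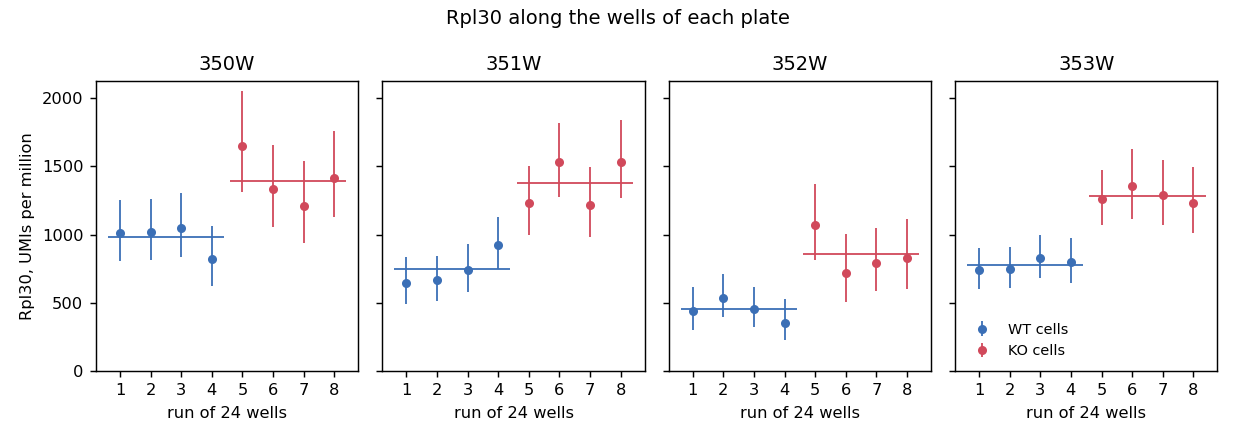
Rpl30 level (vertical axis, CPM) in each run of 24 neighbouring wells (horizontal axis) of the 4 plates, WT cells in blue and KO cells in red. Bars are exact 95% intervals that cover counting error only and horizontal lines are the level over all kept cells of a group. In 352W the WT runs sit between 354 and 536 and the KO runs between 720 and 1067.

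Reads of Rpl30 and of its near-identical copies may have been split between them by the counting. Its 9 -ps copies together held 696, 738, 409 and 468 CPM in WT and 983, 755, 466 and 549 CPM in KO cells. They were higher in KO cells in 4 of 4 plates, by 0.50, 0.03, 0.19 and 0.23 on the log2 scale, less than Rpl30 itself in each plate. Summing Rpl30 with these copies, an alternative chosen after seeing the data, gave differences of 0.50, 0.52, 0.62 and 0.56, which lie closer together than those of Rpl30 alone. The fit of such sums gave 0.56 (SE 0.069) with an edgeR adjusted p of 9.46e-04. Gm10288, a pseudogene per RefSeq and another of the 6 called genes, differed by 0.49, 0.51, 0.63 and 0.73. It is named here because its plate values run close to those of Rpl30 with its copies; whether reads of Rpl30 enter its count was not tested.

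No other tested member stood as high as Rpl30, and Rps27rt, at -0.80, lay further from 0 on the other side. For the other 86 the median log2 fold change was 0.07, with quartiles of -0.03 and 0.13, against a median of -0.004 over all genes tested, and 77 of the 86 lay within 0.25 of 0. Of all 87 tested members, 62 (71.3%) were above 0, against 49.3% of all genes. Rpl30 stood 0.69 above the median of the others and 0.41 above the next member, Rpl11. Among the 200 genes with a mean of at least 500 CPM, it was the only gene with a log2 fold change above 0.5, while B2m, mt-Rnr1, Gm30211, Igkc and Ighm were below -0.5.

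**Figure D2:**
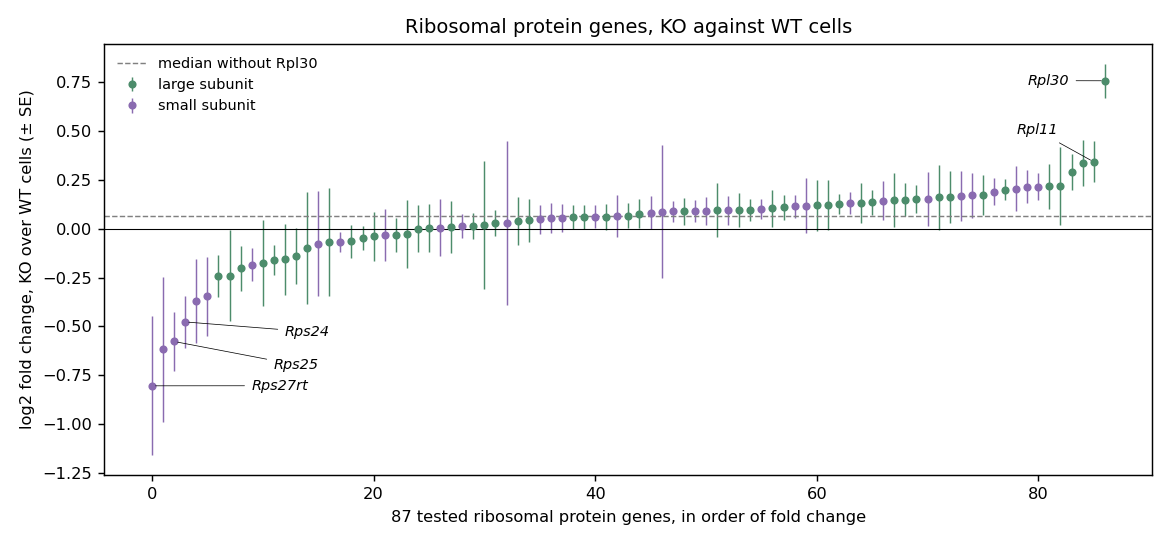
Log2 fold change of KO over WT cells (vertical axis, with SE) for the 87 tested ribosomal protein genes in order (horizontal axis), large subunit in green and small subunit in purple, with the median of the 86 other members as a dashed line. Rpl30 lies at 0.76, the next member at 0.34, and the 5 lowest members are of the small subunit.

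By plate, the family's medians lay above those of all genes. The median log2 ratio of the 86 others was 0.02 in 350W, 0.08 in 351W, 0.13 in 352W and 0.07 in 353W, with 45, 54, 60 and 52 of the 86 above 0. Over all genes the medians were -0.02, -0.01, -0.01 and 0.02, with 48.6%, 49.1%, 49.4% and 52.3% above 0, so 350W differed little from this baseline. All 91 genes together took 10.4%, 10.5%, 9.31% and 9.93% of UMIs in WT cells of the 4 plates and 10.5%, 11.03%, 10.01% and 10.6% in KO cells. KO cells were thus higher by 0.15, 0.50, 0.70 and 0.66 percentage points, a mean of 0.50 points, of which Rpl30 gave 0.041, 0.063, 0.041 and 0.050. In 350W the exact 95% intervals overlap, at 10.25% to 10.47% in WT and 10.39% to 10.64% in KO cells. In the other 3 plates they do not. These intervals cover counting error only. In runs of 24 neighbouring wells, the share overlapped between groups in 350W, 352W and 353W, but not in 351W. In 352W the runs ranged from 8.96% to 9.71% in WT and from 9.62% to 10.36% in KO cells. When cells were split at their median depth, the shallower cells of 352W had 9.73% in WT and 9.62% in KO cells. In every other such group the KO share was the higher. The 255 -ps copies moved the same way, from 4.28% to 4.33%, 4.01% to 4.44%, 3.82% to 4.34% and 3.37% to 3.73%. With every cell thinned to 1000 UMIs the members' median log2 fold change was 0.01 against -0.02 over all genes, with 78 members and 1603 genes left to test, and the share difference was 0.45 points. Since thinning also dropped shallow cells and rare genes, depth alone was not tested.

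**Figure D3:**
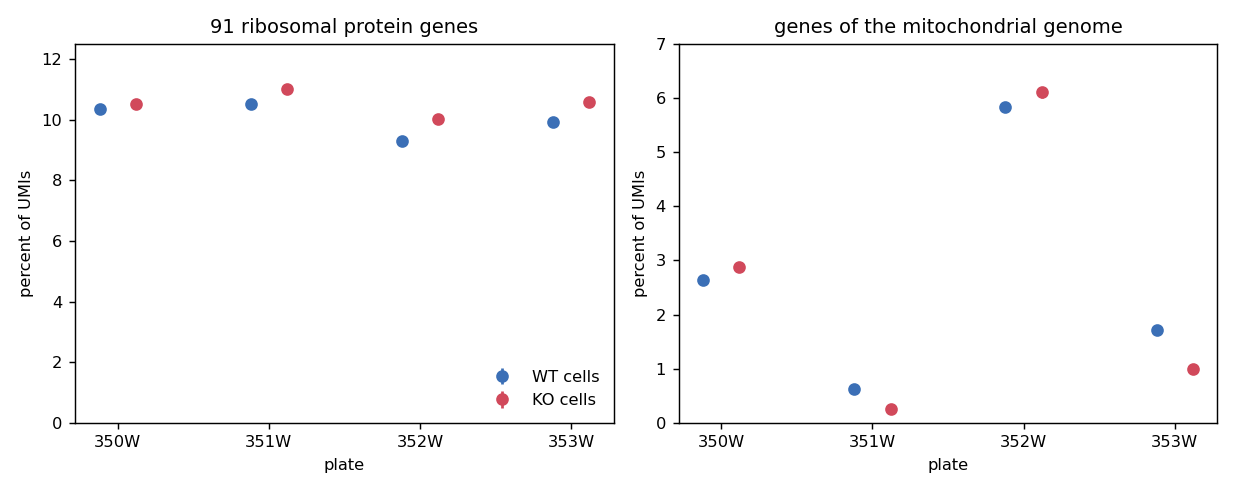
Percent of UMIs (vertical axes) in the 91 ribosomal protein genes (left) and in genes of the mitochondrial genome (right) in WT (blue) and KO (red) cells of each plate, with exact 95% intervals that are smaller than the points. The ribosomal share was higher in KO cells of every plate, by 0.15 to 0.70 points, while the mitochondrial share ranged from 0.253% to 6.11%.

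Counted by plates, 21 tested members (24.1%) were higher in KO cells in 4 of 4 plates, beside 7.83% of all genes, and 6 (6.90%) were lower in 4 of 4, beside 7.75%. Since the family was chosen on this contrast, nothing is read from these shares. Leaving out 350W, so that 3 plates had to be higher, raised the first count to 32 (36.8% of the tested members), beside 14.2% of all genes under the same rule. The 21 included 13 of the large subunit, among them Rpl3, Rpl10a, Rpl11, Rpl13, Rpl28, Rpl35 and the stalk protein Rplp1, and 8 of the small subunit, among them Rps3, Rps10, Rps14, Rps20 and Rps26. Those lower in every plate included Rpl22, Rps9 and Rps25. The 4 WT and 4 KO values of a gene did not overlap for 2 tested members, Rpl13 and Rpl28, both higher in KO cells, beside 1.42% of all genes tested. They did not overlap either for Rpl10l, which was too rare to be tested, with 3 to 5 UMIs in WT and 0 or 1 in KO cells of each plate. The medians of the subunits were alike, 0.07 for 51 large and 0.07 for 36 small subunit genes, with 36 and 26 above 0. At unadjusted p under 0.05 in edgeR, 10 members were higher and 5 lower (17.2% of the tested members, beside 6.07% of all genes). The members were not matched to all genes in level, and none but Rpl30 passed adjustment.

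The highest members after Rpl30 belong to the large subunit. Rpl11, which with Rpl5 and 5S RNA binds Mdm2 and thereby frees p53, was at 426, 518, 293 and 388 CPM in WT and 492, 627, 417 and 507 CPM in KO cells of 350W to 353W. Each plate was higher in KO cells and the groups overlap. The log2 fold change was 0.34 (SE 0.10), with an edgeR adjusted p of 0.556. Rpl28, also of the large subunit, was at 282, 307, 299 and 294 CPM in WT and 365, 432, 371 and 330 CPM in KO cells, with no overlap between groups. Its log2 fold change was 0.34 (SE 0.12), with an edgeR adjusted p of 0.697. Rpl35 and Rpl27 followed at 0.29 and 0.22.

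The start sites of the members at both ends of the order, with Rps9 as the most abundant, are shown because TOP starts are the sequence feature the family is known for. They come from RefSeq on GRCm38.p6, which has an entry for 67 of the 91 members; Rpl30 is not among them. Each runs from 40 bases before the start to 20 from it on, 5′ to 3′ on the gene's strand, and capitals mark the longest run of C and T that reaches into the 5 bases on either side of the start, and of equally long runs the nearest to the start. The windows are Rpl11 at chr4:136053374-136053433 (minus strand), Rpl28 at chr7:4792925-4792984 (plus), Rps27 at chr3:90213629-90213688 (minus), Rps27rt at chr9:114982720-114982779 (minus) and Rps9 at chr7:3704001-3704060 (plus).
Rpl11: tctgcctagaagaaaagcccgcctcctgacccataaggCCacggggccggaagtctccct
Rpl28: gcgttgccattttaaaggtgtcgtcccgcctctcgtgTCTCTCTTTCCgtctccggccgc
Rps27: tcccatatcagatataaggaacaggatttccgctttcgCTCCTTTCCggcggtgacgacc
Rps27rt: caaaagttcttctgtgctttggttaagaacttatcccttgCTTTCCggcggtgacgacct
Rps9: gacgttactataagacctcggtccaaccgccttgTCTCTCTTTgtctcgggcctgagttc
The run is 11 bases in Rpl28, 9 in Rps27 and Rps9, 6 in Rps27rt and 2 in Rpl11 at the annotated starts. Runs of at least 5 were found in 53.7% of the 67 members and in 35.1% of all 27025 symbols in the table. The median log2 fold change was 0.03 for 35 tested members with such a run and 0.06 for 28 without. Rps27 and its retrocopy Rps27rt share a stretch of 19 bases in these windows.

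The 5 lowest members all belong to the small subunit, and none passed adjustment. Rps27rt was at 64.1, 66.0, 44.1 and 60.7 CPM in WT and 36.1, 16.0, 54.3 and 34.0 CPM in KO cells, for a fitted log2 difference of -0.80 (SE 0.35, adjusted p = 0.756 in edgeR). Rps27, a zinc-finger protein of the small subunit, was at 48.1, 48.2, 50.4 and 47.0 CPM in WT and 22.6, 25.6, 72.5 and 18.3 CPM in KO cells, for a fitted log2 difference of -0.62 (SE 0.37, adjusted p = 0.837 in edgeR). KO cells were low in 350W, 351W and 353W and high in 352W for both genes. The pair summed gave -0.94, -1.46, 0.43 and -1.04 on the log2 scale from 13 to 55 UMIs per group and plate. In 352W, Rps27 had 16 UMIs in WT and 16 in KO cells, and Rps27rt had 14 and 12. Leaving out 352W gave -1.15 for Rps27rt and -1.10 for Rps27, leaving out 351W gave -0.47 for Rps27rt, and leaving out 353W gave -0.38 for Rps27, none of them called. Counts that the 2 genes hold cannot be assigned with certainty between them.

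Rps24, in which mutations cause Diamond-Blackfan anaemia, was abundant enough to be followed by plate. Rps25, which is dispensable for most translation but used by some viral and repeat-driven initiation, was rarer. Rps24 was at 1815, 784, 3418 and 1656 CPM in WT and 1425, 320, 3559 and 1120 CPM in KO cells. KO cells were lower in 350W, 351W and 353W and level in 352W, with log2 ratios of -0.35, -1.29, -0.57 and 0.06. The fit gave -0.48 (SE 0.13, edgeR adjusted p = 0.454). Without 352W it gave -0.67 with an edgeR adjusted p of 0.00179, and without the filter on low genes -0.48 with 1.18e-06, so Rps24 was called under those settings. Without 351W it was -0.27 (edgeR adjusted p = 0.937), and without the plate block -0.24, not called, so its size depends on that plate and on the block. Rps25 was at 237, 63.4, 818 and 176 CPM in WT and 158, 28.8, 639 and 102 CPM in KO cells, lower in 4 of 4 plates. These levels came from 74, 25, 260 and 90 UMIs in WT and 35, 9, 141 and 39 UMIs in KO cells. For Rps25 the fit gave -0.58 (SE 0.15, edgeR adjusted p = 0.374).

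Rps4x, the X-linked form of a small subunit protein, was lower in the same 3 plates as Rps24 and higher in 352W, with log2 ratios of -0.65, -1.003, 0.50 and -1.23. The fit gave -0.37, with -0.91 without 352W, -0.14 without 353W and -0.07 without the block, and did not call it. In all, 5 members (Rpl35a, Rps4x, Rps24, Rps27 and Rps27rt) were lower by over 0.25 in 350W, 351W and 353W and not lower in 352W. The share of UMIs from the mitochondrial genome, a common measure of RNA quality, was 2.65%, 0.623%, 5.83% and 1.72% in WT and 2.88%, 0.253%, 6.11% and 0.998% in KO cells. It was thus lower in KO cells of 351W and 353W, where Rps24, Rps25 and Rps4x were furthest below WT, and slightly higher in 350W and 352W. Its part in these differences was not tested.

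**Figure D4:**
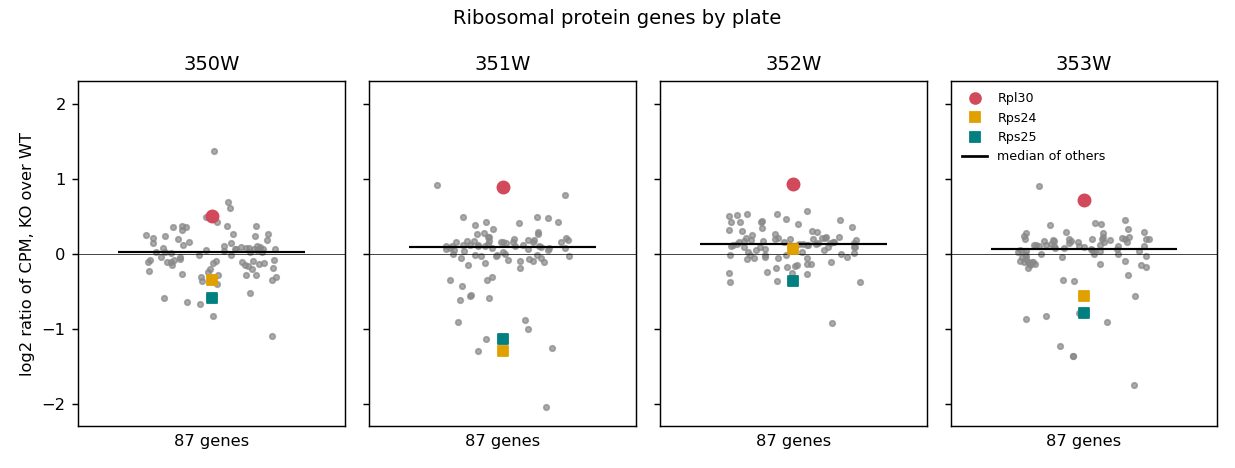
Log2 ratio of CPM, KO over WT cells (vertical axis), of the 87 tested ribosomal protein genes in each plate, with Rpl30 as a red circle, Rps24 and Rps25 as squares, the others in grey spread sideways for clarity, and the median without Rpl30 as a bar. Rpl30 lies at 0.51 to 0.93 in all 4 plates and the medians at 0.02 to 0.13, while Rps24 ranges from -1.29 to 0.06.

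Within single plates Rpl30 ranked 4, 2, 1 and 2 among the 87 members. Above it stood Rpl6 (0.61), Rpl6l (1.37) and Rps4l (0.69) in 350W, Rpl22l1 (0.92) in 351W and Rps4l (0.90) in 353W. None of these kept its place in all plates. Rpl6l differed by 1.37, 0.42, -0.92 and -0.90 and Rps4l by 0.69, -0.89, -0.01 and 0.90 at 9.79 to 109 CPM, and Rpl22l1 by -0.67, 0.92, 0.06 and -0.88.

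The levels of the members across plates can be set apart from the KO against WT contrast, by WT cells alone. UMIs are tagged at the 3′ end and are not divided by transcript length, and the order of genes also reflects how well their reads could be assigned. The highest counts were those of Rps9 at 4534 ± 583 CPM, Rps14 at 4055 ± 536, Rps3 at 3983 ± 324, Rplp1 at 3551 ± 397 and Rpl13a at 3525 ± 272 (SD, n = 4 plates). Neighbours in this order overlapped in mean ± SD. In KO cells against WT cells these 5 had log2 fold changes of -0.07, 0.10, 0.09, 0.20 and 0.13. The 35 members with a mean of at least 1000 CPM ranged from -0.48 (Rps24) to 0.22 (Rps10), with 31 above 0 and a median of 0.09.

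Most members held a steady level between the 4 WT plates, and a few did not. Of the 80 with at least 100 CPM in WT cells, 68 differed less than 2-fold between the highest and the lowest plate, and the median ratio was 1.46, against 1.82 over the 1877 genes of that level. At least 3-fold apart were 6 of the 80 (7.5%), beside 20.4% of those 1877 genes; the limits of 100 CPM and 3-fold were set after the values were seen. These 6 were Rps15a (28.7-fold), Rpl39 (19.4-fold), Rps25 (12.9-fold), Rpl22l1 (12.2-fold), Rps24 (4.36-fold) and Rps4x (4.29-fold). The largest ratios rest on few molecules and are imprecise. In WT cells of 351W, Rps15a and Rpl39 held 6 UMIs each, Rpl22l1 10, Rps25 25, Rps4x 48 and Rps24 309. In KO cells of that plate Rps15a held 6 and Rpl39 held 2. All 6 were highest in 352W and lowest in 351W in WT cells. The 1877 genes were not matched to the members in level. A mean of at least 1000 CPM was reached by 35 members, while 200 of all genes tested reached 500 CPM. The part of level in these comparisons was not tested.

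Rps15a, a small subunit protein, was at 96.2, 15.2, 438 and 123 CPM in WT and 135, 19.2, 552 and 36.6 CPM in KO cells of 350W to 353W. Rpl39, a short protein of the exit tunnel wall, was at 77.0, 15.2, 296 and 60.7 CPM in WT and 81.2, 6.40, 403 and 23.5 CPM in KO cells. Rps4x was at 353, 122, 523 and 184 CPM in WT and 226, 60.8, 738 and 78.5 CPM in KO cells. Differences between plates were larger than those between WT and KO cells of a plate for each of them. Rpl39, Rps24, Rps25 and Rps4x had the plate order 352W, 350W, 353W, 351W in WT and in KO cells, which is also the order of the mitochondrial share in both. That order was not particular to them. Rplp1, only 1.26-fold apart between WT plates, had it in WT and in KO cells, and Rpl5 and Rps27a had it in WT cells only. Rps15a and Rpl22l1 had the order 352W, 353W, 350W, 351W in WT cells, that of Ighm (7092, 1562, 12.8 and 0 CPM). In KO cells Rpl22l1 had the same order, and Rps15a had the order 352W, 350W, 353W, 351W of the mitochondrial share. The 2 Rps24 -ps copies followed Rps24, at 1161, 502, 1974 and 985 CPM in WT cells. With 4 plates and no label that tells them apart, what sets these plates apart was not tested.

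**Figure D5:**
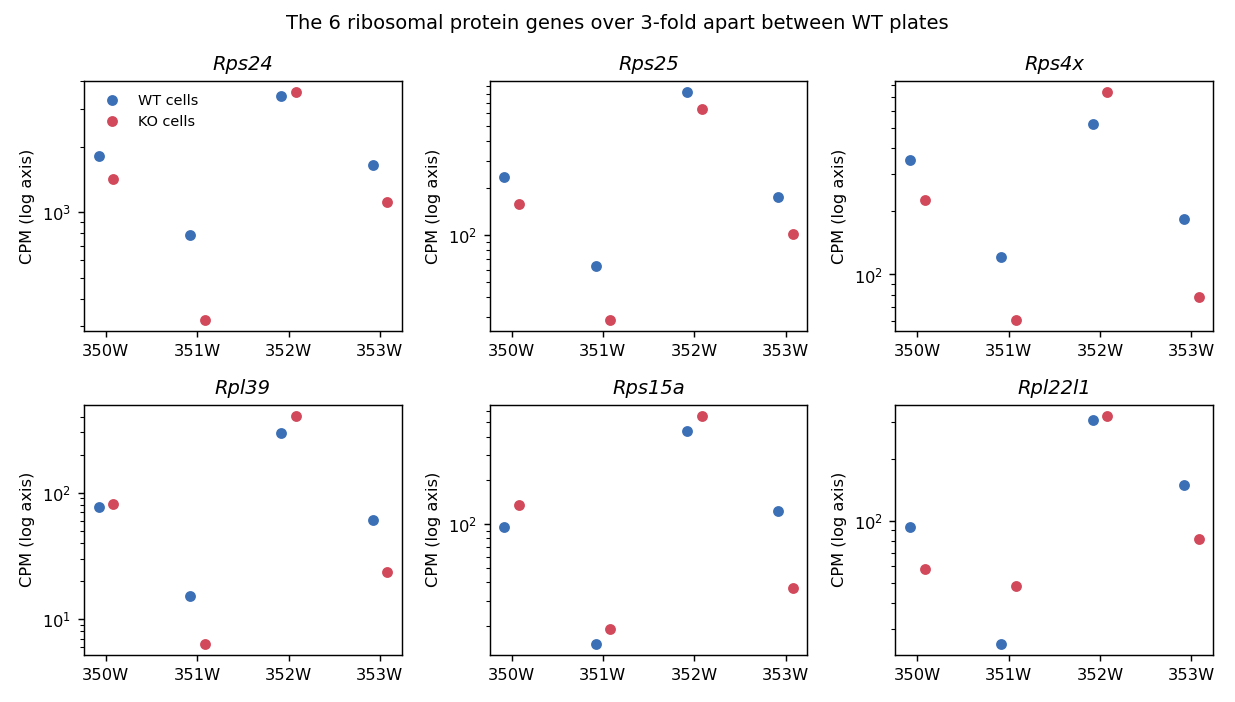
Level in CPM (vertical axes, log scale) of the 6 ribosomal protein genes that differed at least 3-fold between WT plates, in WT (blue) and KO (red) cells of the 4 plates (horizontal axes), each point 1 sum of cells. Each gene is highest in 352W and lowest in 351W in WT and in KO cells, from 15.2 to 438 CPM for Rps15a in WT cells.

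Members picked for their wider interest in blood cells and development ranged from -0.34 (Rps6) to 0.34 (Rpl11), with Rps24 at -0.48 outside that range. Of the Diamond-Blackfan genes other than Rps24 and Rpl11, Rps19, the most often affected, had a log2 fold change of 0.09, Rpl5 0.003, Rps26 0.13 and Rpl35a -0.24 (edgeR adjusted p = 0.754). Rps14, whose loss underlies the anaemia of the 5q- syndrome, had 0.10. Rpl22, needed in early lymphocytes, had -0.16, and its paralog Rpl22l1, which Rpl22 represses, had -0.24 with both signs among plates. Rpl24 and Rpl38, whose mouse mutants show lowered protein synthesis and a changed axial skeleton, had -0.04 and 0.01. Rps6, the target of the S6 kinases, held 21 to 64 UMIs per group and plate. With its -ps copies added, its log2 fold change was -0.03 (SE 0.09). Rpl10 had 0.12 and Rpl27a -0.14. None of these passed adjustment in edgeR.

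Of the 10 like-named genes tested, 7 were above 0, and none was called. Rpl36al had a log2 fold change of 0.04, Rpl37rt 0.10, Rpl6l 0.02, Rpl7l1 -0.10, Rps27l 0.15, Rps3a2 0.09, Rps3a3 0.17 and Rps4l 0.03. The members not tested were Rpl10l, Rpl39l, Rpl3l and Rps19bp1, with 16, 28, 1 and 77 UMIs in all. Rpl3l is known from heart and muscle and Rpl10l from testis, and both were near 0 here. Summing near-identical genes, Rpl37 with Rpl37rt gave -0.05, 0.11, 0.18 and 0.13 by plate, and the Rps3a genes gave -0.07, 0.33, 0.42 and 0.07.

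Genes that act with the ribosome showed no called change. Of 144 tested genes in 9 lists, written with earlier results of these data known, edgeR called 0 and DESeq2 called 0. An unadjusted edgeR p under 0.05 was found for 11 of the 144, beside 397 of all 6541 genes tested (6.07%). Fau, a ubiquitin-like fusion that carries a small subunit protein, had 0.25, and Rack1, a scaffold on the small subunit, had 0.14. The 7 elongation factors had a median of 0.04, with Eef1a1 at 0.09, Eef1b2 at 0.09 and Eef2 at 0.02, and the 28 initiation factors had a median of 0.06. Among 12 other mRNAs with a TOP start the median was 0.08, with Tpt1 at 0.16, Gas5 at -0.27 and Npm1 at -0.25. These medians lie beside 0.07 for the ribosomal protein genes.

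The nuclear and mitochondrial lists of ribosome production had medians below 0. The 26 ribosome biogenesis genes had a median of -0.10, with Ncl, the nucleolar protein nucleolin, at -0.13, Nop58 at -0.07 and Nhp2 at -0.08. The 55 tested proteins of the mitochondrial ribosome had a median of -0.02, with Mrpl52 at 0.34, Mrps28 at 0.21 and Mrpl33 at -0.21. The 6 regulators included Myc at 0.03, Eif4ebp1 at 0.35 and Larp1, which binds TOP mRNAs, at -0.19. Trp53 and Mdm4 were at -0.12 and 0.15, and the 5 chaperones of single ribosomal proteins had a median of 0.08, with Tsr2, the chaperone of Rps26, at 0.26. None of these genes passed adjustment in edgeR, and no list was compared with another by a test.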

How the data were processed

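The files are raw counts (UMIs) of each gene in each well, deposited by the authors and not normalized; the submitters' processing notes name GRCm38.p4 and FastQC, and the counting tool is not given in the sources used here. The members, lists and plate block were chosen with earlier results of these data known. Symbols were found for 25714 of 25832 IDs. Wells with 500 or more UMIs were kept, doublets were not called, and no well name occurred in more than 1 plate. Counts were summed per plate and name prefix and scaled to a total of 1000000 (CPM). The test was edgeR's quasi-likelihood fit (version 4.0.16, R 4.3.3) with the plate as block, after filterByExpr and TMM, and calls were made at a Benjamini-Hochberg adjusted p under 0.05; the fit was tested on simulated data. SE was taken as the size of the log2 fold change over the root of F, and is too small where edgeR bounds the p-value by Poisson counts. WT and KO wells of a plate share that plate, which is where the pairing comes from. Intervals are exact (Clopper-Pearson, 95%). Alternatives were no block, DESeq2 1.42.0, other scalings, filters and depths, and each plate left out. Values were printed by rule for called members, the 5 highest and 5 lowest, the 5 most abundant, members of wider interest, like-named genes and the 3 most abundant genes per list; others were named after their values were seen. The ChIP-seq, bulk RNA-seq and ATAC-seq samples were not used here, and a few single genes are not reported here. Python 3.11.15 was used for all else.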

Additional observations from a re-analysis of the deposited data

Results flagged for a closer look

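The wells left out for having fewer than 500 UMIs were looked at apart. In the 49 such KO wells, ribosomal protein genes held 1097 of 15372 UMIs, a share of 7.14% (exact 95% interval 6.73% to 7.55%, counting error only), below the 10.01% to 11.03% of the kept KO cells. The 3 such WT wells had 6.69% (5.28% to 8.34%) of 1091 UMIs. Rpl30 had 11 UMIs in the KO wells and 0 in the WT wells.

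Of 51 groups of 4 plates searched for a value far from the rest, 1 held such a value: Rpl22l1 in KO cells was at 321.5 CPM in 352W, against 48.0 to 81.1 CPM in the other plates. Chance alone marks about 1 in 20 groups.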

How the results depend on the processing

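Rpl30 was higher in KO cells under every alternative, with log2 fold changes from 0.56 to 0.84, and the edgeR adjusted p was 0.0172 or lower wherever the plate block was kept. Its main value was 0.76 with 1 member called. Without the replicate block it was 0.74 with 0 members called (unadjusted p = 0.0102, and 86 genes at an unadjusted p under 0.05). DESeq2, with the block, gave 0.77 with 0 called (unadjusted p = 1.70e-04). No filter on genes called 2 of 91 members, beside 26 of all 25820 genes tested. Leaving out each plate in turn called 1 to 2 of 87 or 88 members, beside 2 to 8 of all 6432 to 7492 genes tested. Thinning to 1000 UMIs, which tested 78 members and 1603 genes, gave a median of 0.01 and 13 members higher in every plate. Leaving out a plate gave 24 to 32, but then only 3 plates had to be higher. Without 350W, 14.2% of all genes met that looser rule, beside 7.83% in 4 of 4 plates. The share of all genes higher in every plate was not taken for the other settings. With -ps copies added, the share difference was 0.84 points and Rpl30 stood 0.47 above the median of the others; this setting and TMM-scaled CPM were chosen after seeing the data. The causes were not tested.

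Of 91 alternatives to the main results 80 were counted as unchanged, 9 moved and 2 lost the call. The 80 include counts and levels that have no direction or threshold to keep, such as the lists of other genes, with 0 called in every setting. Of 422 alternatives for single genes 401 kept direction and threshold. Among the rest, 2 (both Rps24) gained a call and 19 changed sign, none of them called. Over left-out plates, Rpl5 ranged from -0.047 to 0.057, Rpl36al from -0.028 to 0.17, Rps4l from -0.16 to 0.47, Rpl6l from -0.35 to 0.29, Rpl22l1 from -0.41 to 0.035, Rpl38 from -0.00091 to 0.043, Rpl7l1 from -0.20 to 0.038 and Rps3a2 from -0.14 to 0.25. Without the block Rpl36al was at -0.0037 and Rps4l at -0.048, without the cell filter Rpl5 was at -0.0084 and Rpl6l at -0.0030, thinned Rpl5 was at -0.11 and Rpl36al at -0.10, and with copies Rpl27a was at 0.051.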
